A study of Mus musculus with 12 samples.

Results

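The genes described here encode the MHC class II presentation machinery of the mouse: the classical class II chains, the invariant chain, the peptide editors and their inhibitor, the class II transactivator and a lysosomal thiol reductase. They were taken as every row of the deposited count table whose gene symbol is Cd74, H2-Aa, H2-Ab1, H2-Eb1, H2-DMa, H2-DMb1, H2-Oa, H2-Ob, Ciita or Ifi30. Each symbol matched a single row, which gave 10 genes of the 55487 in the table. All 10 passed the filter on low counts and were among the 18407 genes tested.

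The study measured polyadenylated RNA of whole lung from C57BL/6NCr mice, a C57BL/6 substrain, of 6, 12, 20 and 30 months. These 4 ages are called 6M, 12M, 20M and 30M, each had 3 libraries, and no treatment, genotype or sex is given in the labels. Libraries are named here by age and number, for example 30M_216. Library totals ran from 12152066 to 15058628 counts. Alveolar type 2 cell markers summed to between 19147 and 36290 CPM (counts scaled to a library of 1e+06) in each library, and endothelial markers were also detected in every library, as lung tissue should show. Whole lung is a mixture of cells, and in bulk RNA a change in the number of cells of a type and a change in RNA per cell cannot be told apart. Whether the 3 libraries of an age came from different animals is not stated, and the p-values speak for the scatter among libraries.

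MHC class II molecules are dimers of an alpha and a beta chain that carry peptides from the endosomal pathway to the cell surface, where CD4+ T cells read them. The invariant chain holds the new dimer and blocks its groove, the DM heterodimer then exchanges the remaining fragment of that chain for peptide, and the DO heterodimer inhibits DM. The pathway is known from B cells, dendritic cells and macrophages, and in the lung also from alveolar type 2 cells. Its genes share the coactivator CIITA, which has no DNA-binding site of its own and acts through RFX, NF-Y and CREB proteins bound to a conserved promoter module with S, X and Y boxes. C57BL/6 mice carry a disabled H2-Ea gene and so make no I-E molecule on the surface. In these libraries H2-Ea had 0 counts in 11 libraries and 1 count in 30M_220.

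The promoters of 5 members are shown because the arrangement that CIITA-bound complexes read is visible in their letters. RefSeq promoters (GRCm38.p6, 250 bases before to 50 bases after the start) were found for 7 of the 10 members, and each sequence reads 5′ to 3′ on the gene's strand. The first capitals mark GNAAC, letters from within an X box, and the second mark TGATTGG, the letters of a Y box.
H2-Aa, chr17:34287857-34287914, minus strand: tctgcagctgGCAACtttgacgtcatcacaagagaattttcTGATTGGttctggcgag
H2-Eb1, chr17:34305766-34305822, plus strand: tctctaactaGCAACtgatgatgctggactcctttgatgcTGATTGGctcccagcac
H2-DMb1, chr17:34153087-34153144, plus strand: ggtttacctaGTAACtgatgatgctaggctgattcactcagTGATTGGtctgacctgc
H2-Oa, chr17:34092293-34092350, plus strand: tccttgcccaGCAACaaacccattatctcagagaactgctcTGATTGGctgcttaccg
H2-Ob, chr17:34238808-34238862, plus strand: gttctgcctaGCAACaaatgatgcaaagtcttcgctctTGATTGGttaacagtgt
The letters between both capitals number 26 in H2-Aa, H2-DMb1 and H2-Oa, 25 in H2-Eb1 and 23 in H2-Ob. Over all 32851 promoters of the same length, searched on both strands, TGATTGG occurred in 7.82%, and GNAAC followed after 15 to 30 bases by TGATTGG occurred in 0.469%. The letters and the spacing were chosen after these sequences were read, so the match describes the 5 genes and is not evidence about them. The promoters of H2-DMa and Ifi30 in the same table held neither TGATTGG nor the pair, which says only that these letters are not in those windows.

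The members lie on 4 chromosomes in GRCm38, as the table gives them. The class II stretch of chromosome 17 holds 7 of them, from H2-Oa (34092340 to 34095234) through H2-DMa (34119541 to 34139101), H2-DMb1 (34153072 to 34160230), H2-Ob (34238903 to 34254414), H2-Ab1 (34257689 to 34269419) and H2-Aa (34282744 to 34287823) to H2-Eb1 (34305867 to 34316674). H2-Aa is on the minus strand and the other 6 are on the plus strand. Cd74 lies on chromosome 18 (60803848 to 60812652), Ciita on chromosome 16 (10480059 to 10528418) and Ifi30 on chromosome 8 (70762774 to 70766663). Some members overlap other genes, and the strand setting of the counting is not given in the sources used here. H2-DMa overlaps Brd2 on the opposite strand, H2-Oa overlaps the antisense gene BC051537, Ciita overlaps Dexi and Ifi30 overlaps 6330537M06Rik, so reads in the shared parts are uncertain. H2-DMb1 has the near copy H2-DMb2, and how reads divide between the pair is uncertain too.

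The abundance of the members spanned a wide range. Per kilobase of exon, Cd74, which encodes the invariant chain, led with a mean of 642.5 CPM per kb over the 12 libraries. The classical beta chain genes H2-Eb1 and H2-Ab1 and the alpha chain gene H2-Aa followed at 165, 153 and 145 CPM per kb. Ifi30, whose product GILT reduces disulphide bonds of antigens in the lysosome, stood at 72.2 CPM per kb, H2-DMb1 at 41.4 and H2-DMa, the partner chain of the DM heterodimer, at 17.5. The DO chain genes H2-Ob and H2-Oa and the coactivator gene Ciita were lowest, at 6.76, 5.39 and 3.38 CPM per kb. The steps from Cd74 to H2-Eb1, from H2-Aa to Ifi30 and from there to H2-Ob ran in the same direction in 12 of 12 libraries. Neighbours that changed places were H2-Eb1 above H2-Ab1 in 10 libraries, H2-Ab1 above H2-Aa in 8, H2-Ob above H2-Oa in 9 and H2-Oa above Ciita in 9.

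The question of the design is how lung expression differs with age. At 30M against 6M, 7 of the 10 members were called higher, meaning an edgeR quasi-likelihood test adjusted over all tested genes by Benjamini-Hochberg under 0.05, and 0 were lower. They were the invariant chain gene Cd74, both classical beta chain genes, both DM chain genes, Ciita and Ifi30. In that comparison 1.93% of all tested genes were called higher and 0.0272% lower. The median log2 change of the 10 members was 0.85, against 0.00284 over all tested genes. The 3 members not called were the alpha chain gene H2-Aa and the DO chain genes H2-Oa and H2-Ob. All 3 libraries of 30M lay above all 3 of 6M for 8 of the 10 members, H2-Aa among them, where 9.89% of all tested genes did so, and for 0 members did they lie below, where 8.66% did.

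**Figure D1:**
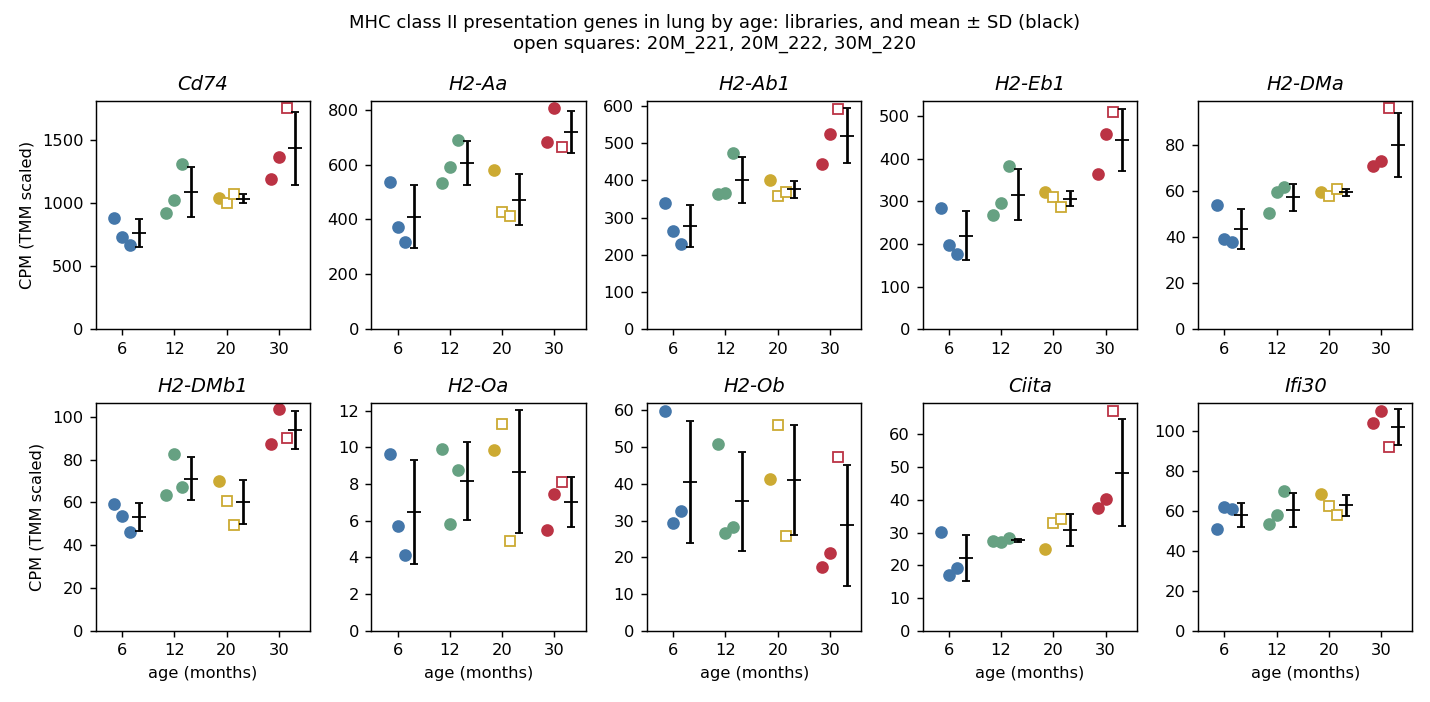
Level of each member in every library (CPM, one panel per gene, linear axis from 0), with a point for each of the 3 libraries of an age, open squares for 20M_221, 20M_222 and 30M_220, and black bars for the mean and SD. In this plot 8 panels have every 30M point above every 6M point, and in the panels of H2-Oa and H2-Ob the ages overlap.

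Cd74 had 881, 734 and 668 CPM at 6M, 924, 1026 and 1306 CPM at 12M, 1037, 997 and 1068 CPM at 20M, and 1188, 1362 and 1754 CPM at 30M. Every 30M library was above every library of the other ages except 12M_208, which exceeded 30M_216. The mean was 1434 ± 290.2 CPM at 30M and 761 ± 109 CPM at 6M (SD, n = 3 each), a log2 fold change of 0.91 with a standard error (SE) of 0.19 (adjusted p = 0.0262, edgeR).

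Both classical beta chain genes rose as well, while the alpha chain gene H2-Aa missed the threshold. H2-Ab1, the beta chain of I-A, had 339, 264 and 230.1 CPM at 6M, 364, 366 and 473 CPM at 12M, 401, 357 and 368 CPM at 20M, and 443, 525 and 592 CPM at 30M. The 30M and 6M libraries did not overlap, and those of 12M and 20M lay between their means. The log2 fold change at 30M against 6M was 0.90 (SE 0.18, adjusted p = 0.0210, edgeR).
H2-Eb1, the beta chain of I-E, had 284, 197 and 177 CPM at 6M, 268, 295 and 383 CPM at 12M, 323, 309 and 287 CPM at 20M, and 366, 459 and 509.9 CPM at 30M. Its mean of 445 ± 73.2 CPM at 30M, against 219 ± 57.0 CPM at 6M, gave a log2 fold change of 1.02 (SE 0.20, adjusted p = 0.0213, edgeR). It was higher although its partner chain gene, H2-Ea, gave almost no counts in this strain.
H2-Aa, the alpha chain of I-A, had 538, 374 and 317 CPM at 6M, 533, 591 and 691 CPM at 12M, 579, 426 and 413 CPM at 20M, and 684, 807 and 664 CPM at 30M. The 30M libraries lay above those of 6M, but 6M_201 stood far above the other two of its age. The log2 fold change was 0.81 (SE 0.21) with an adjusted p of 0.0744 in edgeR, which missed the threshold.

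H2-Aa and H2-Ab1 encode the chains of a single heterodimer, and their ratio per kilobase was near 1 in most libraries. Its level depends on the exon lengths used, which are the same for every library. It was 1.07, 0.957 and 0.931 at 6M, 0.989, 1.09 and 0.987 at 12M, 0.977, 0.807 and 0.758 at 20M, and 1.04, 1.04 and 0.759 at 30M. The 3 low ratios came from 20M_221, 20M_222 and 30M_220. Those libraries also stood apart in base composition: across 18382 genes their levels relative to the 6M mean rose with gene GC content (Spearman rho 0.358, 0.465 and 0.328), while the other 9 libraries lay between -0.0869 and 0.229. Gene GC content was taken from the longest annotated transcript, 46.5% for H2-Aa and 57.3% for H2-Ab1. The same 3 libraries also had the lowest sums of alveolar type 2 markers, at 20351, 22138 and 19147 CPM, where the other 9 had 27678 CPM or more. With a covariate that marks those 3 libraries, H2-Aa joined the called members, for 8 in all. H2-Aa also joined with DESeq2, limma voom or no filter on low counts. With the 3 libraries left out it missed the threshold (adjusted p = 0.0916, edgeR). The covariate marks the libraries and measures neither base composition nor the alveolar type 2 level, so the part of either in the ratio was not tested. H2-Eb1 (51.8% GC) against H2-Ab1 ranged from 0.972 to 1.16 over the 12 libraries.

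**Figure D2:**
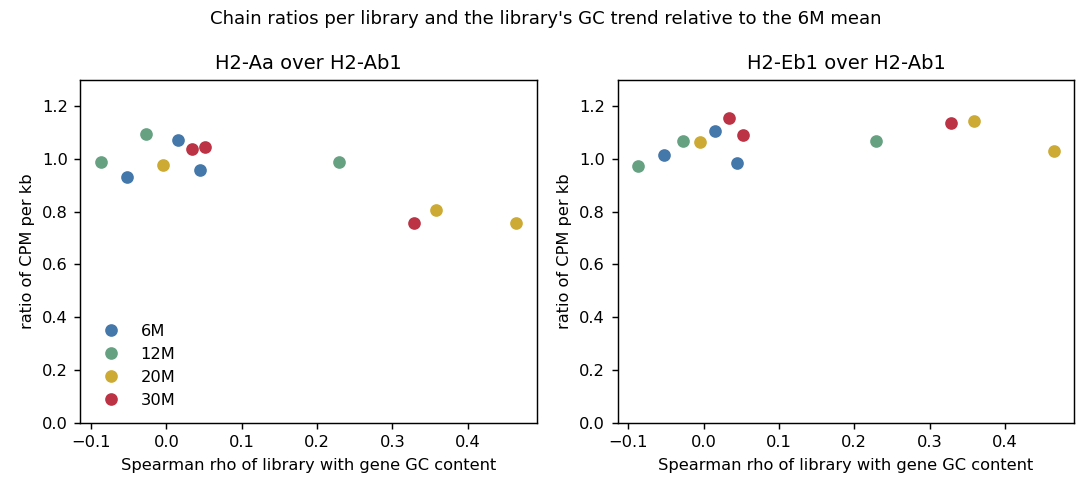
Ratios of H2-Aa to H2-Ab1 (left) and of H2-Eb1 to H2-Ab1 (right) per kilobase of exon in each library, against the library's correlation of level with gene GC content relative to the 6M mean (horizontal axis, Spearman rho), coloured by age. The 3 libraries with the highest rho have the 3 lowest ratios of H2-Aa to H2-Ab1, from 0.758 to 0.807, and their ratios of H2-Eb1 to H2-Ab1 lie among the rest.

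The DM chain genes rose at 30M. H2-DMa had 53.8, 39.4 and 37.9 CPM at 6M, 50.4, 59.8 and 61.7 CPM at 12M, 59.6, 58.1 and 61.1 CPM at 20M, and 71.0, 73.2 and 96.2 CPM at 30M. Every 30M library was above each of the other 9. The log2 fold change at 30M against 6M was 0.87 (SE 0.16, adjusted p = 0.0153, edgeR). H2-DMb1 had 59.4, 53.6 and 46.3 CPM at 6M, 63.6, 82.8 and 67.0 CPM at 12M, 70.0, 60.6 and 49.5 CPM at 20M, and 87.5, 104 and 90.1 CPM at 30M. Here too the 30M libraries were the 3 highest of the 12, and the log2 fold change was 0.82 (SE 0.16, adjusted p = 0.0191, edgeR). Its near copy H2-DMb2, which encodes an alternative DM beta chain, averaged 23.9 ± 12.7 CPM at 30M and 22.6 ± 10.1 CPM at 6M (SD, n = 3 each), a log2 difference of 0.08 that missed the threshold (adjusted p = 0.975, edgeR).

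The genes of DO, the inhibitor of DM, gave no call. H2-Ob, its beta chain, had 59.7, 29.4 and 32.6 CPM at 6M, 50.8, 26.7 and 28.1 CPM at 12M, 41.2, 55.9 and 25.9 CPM at 20M, and 17.3, 21.2 and 47.4 CPM at 30M. The ages overlapped, and at 30M a single library, 30M_220, was more than the other two put together. The log2 difference at 30M against 6M was -0.50 (SE 0.43, adjusted p = 0.776, edgeR). H2-Oa, the alpha chain, had 9.63, 5.70 and 4.12 CPM at 6M, 9.91, 5.81 and 8.78 CPM at 12M, 9.85, 11.3 and 4.87 CPM at 20M, and 5.48, 7.46 and 8.08 CPM at 30M. Its log2 difference was 0.11 (SE 0.36, adjusted p = 0.959, edgeR), and it was -0.13 without 6M_203, -0.0056 without 30M_220 and -0.0048 without the 3 libraries with the GC trend, so it has no fixed sign. Both DO genes varied widely within an age, and their SEs were more than those of H2-DMa and H2-DMb1, at 0.16 each.

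Set against their DM counterparts, the DO genes were lower at 30M than at 6M, with 12M and 20M libraries on both sides. H2-Ob per kilobase of H2-DMb1 was 0.314, 0.171 and 0.220 at 6M, 0.250, 0.101 and 0.131 at 12M, 0.184, 0.288 and 0.163 at 20M, and 0.0619, 0.0640 and 0.164 at 30M. H2-Oa per H2-DMa was 0.438, 0.354 and 0.266 at 6M, 0.482, 0.238 and 0.349 at 12M, 0.405, 0.474 and 0.195 at 20M, and 0.189, 0.250 and 0.206 at 30M. In both ratios the 30M and 6M libraries did not overlap, though the gap was narrow, while libraries of 12M and 20M overlapped those of 30M. The ratio of invariant chain to class II differed less: Cd74 per H2-Ab1 averaged 4.20 at 30M and 4.22 at 6M, and ran from 3.88 to 4.53 over the 12 libraries. These ratios were not tested.

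Ciita, the coactivator of the whole group, had 30.2, 17.1 and 19.2 CPM at 6M, 27.6, 27.0 and 28.2 CPM at 12M, 25.1, 33.1 and 34.2 CPM at 20M, and 37.5, 40.2 and 67.1 CPM at 30M. All 3 libraries of 30M exceeded the other 9, with 30M_220 far above the rest. Its log2 fold change at 30M against 6M, 1.12 (SE 0.25, adjusted p = 0.0345, edgeR), was the widest among the members and also had the widest SE of those called. Ifi30 had 51.1, 62.1 and 61.1 CPM at 6M, 53.6, 58.0 and 69.8 CPM at 12M, 68.4, 62.2 and 58.0 CPM at 20M, and 104, 110.0 and 92.1 CPM at 30M. It stayed in a narrow band over the first 3 ages and stood apart at 30M. The log2 fold change was 0.81 (SE 0.14), with the lowest adjusted p of the members (0.00942, edgeR).

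The calls rest on 3 libraries an age, and single libraries decide several of them. In edgeR, leaving out 6M_203 left 0 of the 10 members called (Ifi30 at adjusted p = 0.0544), leaving out 6M_202 left Ifi30 alone, leaving out 30M_218 left Ciita, H2-DMa and Ifi30, and leaving out 30M_220 left H2-DMa, H2-DMb1 and Ifi30. Ciita was also lost without 12M_206 or 12M_207, and H2-Aa joined without 6M_201 or 20M_213. Without 20M_221, 20M_222 and 30M_220 together, H2-DMb1 and Ifi30 remained. Calls over all genes, 361 with every library, numbered 69 without 6M_203, 121 without 6M_202, 217 without 6M_201, 214 without 30M_218, 326 without 30M_220, 323 without 12M_206, 339 without 12M_207, 383 without 20M_213, and 348 without the 3 libraries together. Without 30M_220 or the 3 together, the count over all genes was thus close to that with every library while the members' count was 3 and 2. The direction of the 8 members other than the DO genes was the same in each of these fits, with log2 changes from 0.65 to 1.41.

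**Figure D3:**
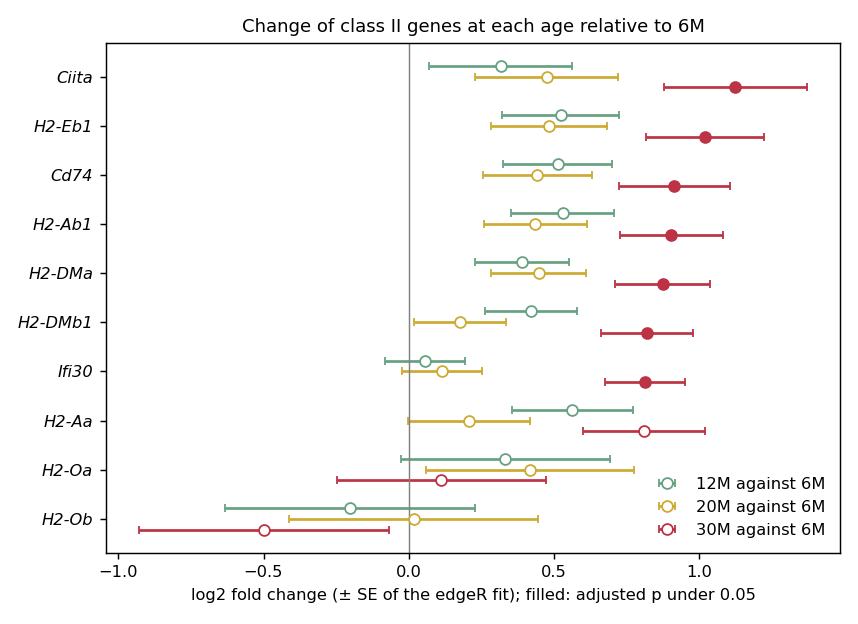
Log2 fold change of each member with its SE (points and bars, edgeR) at 12M, 20M and 30M, each against 6M, with filled points where the adjusted p is under 0.05. At 30M 7 members are filled, and no point is filled at 12M or 20M.

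At 12M and 20M the fitted change from 6M was positive for 9 and 10 of the members, but none was called. At 12M against 6M, 0 of 10 were called higher or lower, as were 0% of all tested genes, and adjusted p-values were 0.988 or above. The changes of Cd74, H2-Aa, H2-Ab1 and H2-Eb1 were 0.51, 0.56, 0.53 and 0.52 on the log2 scale, and 6 members were higher at an unadjusted p under 0.05, as were 1.95% of all tested genes. At 20M against 6M, 0 of 10 were called, beside 0.0163% of all tested genes called higher, with adjusted p-values from 0.638. There the changes of the same 4 genes were 0.44, 0.21, 0.43 and 0.48, and 4 members were higher at an unadjusted p under 0.05, as were 4.93% of all tested genes. DESeq2 and limma voom also called 0 members in both comparisons. Of the genes to which it gave an adjusted p, DESeq2 called 0.049% at 12M and 0.333% at 20M, in either direction. Of all tested genes limma voom called 0% at 12M and 4.22% at 20M, in either direction. Libraries of the older age were all above those of 6M for 3 members at 12M, where 6.3% of all tested genes were, and for 4 at 20M, where 7.77% were. They were all below for 0 members at either age, beside 5.81% of all tested genes at 12M and 7.58% at 20M.

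The step from 20M to 30M was also below the threshold for single genes. At 30M against 20M, 0 of 10 members were called by edgeR, 2 by DESeq2 and 1 by limma voom, beside 0.212% of all tested genes called higher by edgeR, and 1.74% and 1.15% called in either direction by DESeq2 and limma voom. In edgeR 8 members were higher at an unadjusted p under 0.05, as were 5.13% of all tested genes. Ifi30 came nearest, with a log2 difference of 0.70 and an adjusted p of 0.0746. The 30M libraries were all above the 20M libraries for 8 members, where 5.69% of all tested genes were, and all below for 0, where 5.16% were. Ifi30 and H2-DMb1 put most of their 30M difference into that step: their log2 differences were 0.70 and 0.64 at 30M against 20M, and 0.11 and 0.18 at 20M against 6M. Cd74 and H2-DMa were divided about evenly, at 0.47 and 0.43 against 20M and 0.44 and 0.45 for 20M against 6M. Comparisons that share an age share its libraries and are not independent.

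A slope on months, fitted over the 12 libraries, was called for 6 members, where 2.5% of all tested genes had a called rise and 0.179% a called fall. Ciita had the steepest, 0.0448 log2 units per month (SE 0.00905, adjusted p = 0.0148, edgeR). H2-Eb1, H2-DMa, Ifi30, Cd74 and H2-Ab1 followed at 0.0371, 0.0331, 0.0331, 0.0326 and 0.0318, with adjusted p-values from 0.0107 for Ifi30 to 0.0402 for Cd74. H2-DMb1 missed at 0.0281 (adjusted p = 0.0623), as did H2-Aa at 0.0254 (adjusted p = 0.233). The count was 3 without 6M_202, 2 without 6M_203, 3 without 30M_218 and 1 without 30M_220. In those fits slopes called in either direction fell over all tested genes too, from 2.68% to 1.94%, 1.24%, 1.53% and 1.35%. A joint test over the 4 ages called Ifi30 alone (adjusted p = 0.0198, edgeR), where 1.11% of all tested genes were called. It called 0 members without 6M_203, 30M_216 or 30M_218, beside 0.509%, 0.451% and 0.357% of all tested genes. It called 2 without 6M_201 or 20M_213, beside 0.76% and 1.51%. DESeq2 and limma voom called 8 members each, beside 4.29% and 9.01% of genes.

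Over the 12 libraries the members varied together to different degrees. The Pearson r of log2 CPM with the mean of the other classical genes was 0.991 for H2-Ab1, 0.982 for H2-Eb1, 0.949 for Cd74, 0.945 for H2-DMa and 0.868 for H2-Aa. For H2-DMb1, Ciita and Ifi30 it was 0.856, 0.836 and 0.692. H2-Oa and H2-Ob stood outside that group, at 0.397 and -0.168. The libraries share ages and depth, so these coefficients are a description.

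The DO genes ranked libraries within an age much as B cell markers did, though other members followed other lists about as closely. DO is known mainly from B cells. The 11 B cell markers summed to 406, 238 and 200.1 CPM at 6M, 424, 215 and 291 CPM at 12M, 397, 461 and 212.9 CPM at 20M, and 119, 112 and 435 CPM at 30M. Libraries 6M_201, 12M_206, 20M_221 and 30M_220 were the highest of their ages, and H2-Ob and H2-Oa were highest in the same 4. Of the 12 pairs of libraries within an age, H2-Ob put 10 and H2-Oa 11 in the order of the B cell sum. H2-DMb2 did so for 11 pairs and H2-Eb2, a further class II beta chain gene, for 12. Among the other members H2-Eb1 did so for 8, H2-Ab1 and Ciita for 7, Cd74, H2-Aa, H2-DMa and H2-DMb1 for 6 and Ifi30 for 4. The dendritic cell sum gave H2-Ob 9 pairs and H2-Oa 10, so it ordered libraries almost alike. Counts of this size also occurred between other members and other lists. Cd74 and H2-DMa put 10 pairs each in the order of the summed monocyte markers, and Ciita 9. H2-Aa and H2-DMb1 put 10 each in the order of the RFX and NF-Y genes, and Ifi30 10 in that of the alveolar type 2 markers. With 3 libraries an age such orders are a description.

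**Figure D4:**
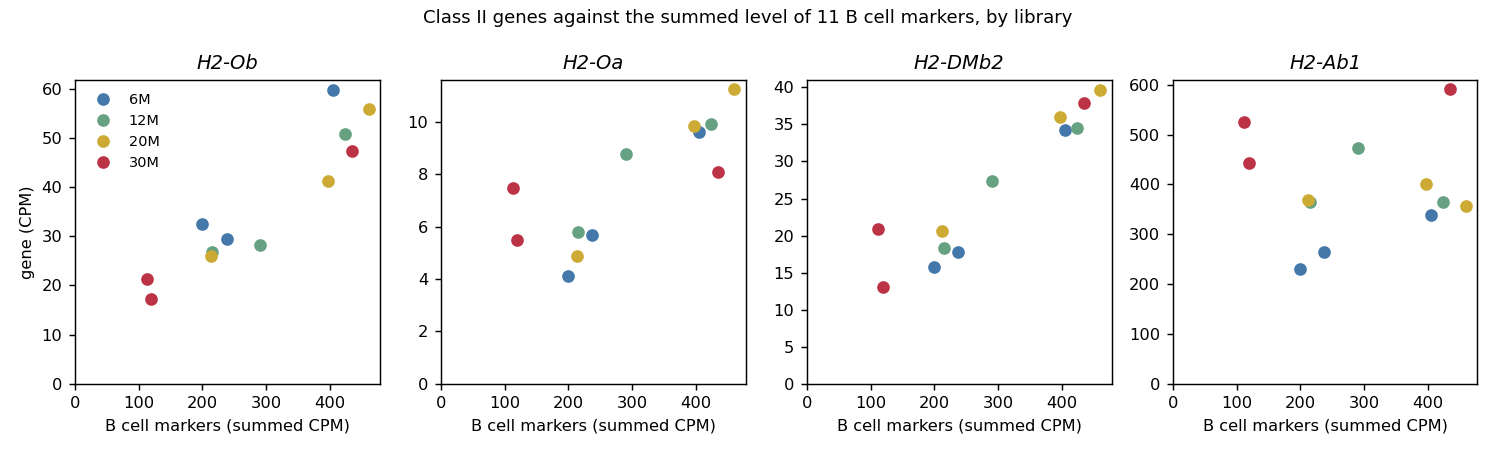
Levels of H2-Ob, H2-Oa, H2-DMb2 and H2-Ab1 in each library (CPM, linear axes from 0, one panel per gene) against the summed level of 11 B cell markers, coloured by age. H2-Ob, H2-Oa and H2-DMb2 are high in the libraries with high sums, while H2-Ab1 is high in 30M libraries with sums of 112 and 119 CPM.

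None of the 11 B cell markers was called at 30M against 6M, and their median log2 change was -0.22. The markers nearest to a call were Cr2, Cd79b, Fcer2a and Pax5, with adjusted p-values from 0.378 to 0.789. Cr2, the complement receptor of B cells, averaged 4.0 ± 3.76 CPM at 30M and 11.3 ± 3.58 CPM at 6M (SD, n = 3 each). No B cell marker was at 0 in any age.

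Markers of other immune cells moved with the members at 30M. Of 9 interstitial macrophage markers 9 were called higher, with a median log2 change of 1.90 and sums of 658 to 716 CPM at 30M and 232 to 287 CPM at 6M. C1qc, C1qb and C1qa, the chains of complement C1q, averaged 84.4, 104 and 96.1 CPM at 30M and 20.4, 28.0 and 30.7 CPM at 6M. Adgre1, which encodes F4/80, averaged 54.1 ± 6.80 CPM at 30M and 13.9 ± 5.16 CPM at 6M, a log2 fold change of 1.96 (SE 0.22, adjusted p = 0.000952, edgeR). Cx3cr1 and Csf1r lost the call in 4 and 2 of the 12 fits that left out 1 library. Of 11 dendritic cell markers 3 were called higher, Clec10a, Xcr1 and Flt3, with sums of 149 to 228 CPM at 30M and 107 to 166 CPM at 6M. The calls of all 3 were lost without 6M_202, 6M_203 or 30M_218, and those of Flt3, Xcr1 and Clec10a were lost in 7, 4 and 4 of the 12 fits that left out 1 library, with adjusted p up to 0.218. Of 7 monocyte markers 2, Treml4 and Vcan, and of 6 T cell markers 3, Cd3e, Cd3g and Lat, were called higher. Treml4 and Vcan lost the call without 6M_203. The 3 T cell markers lost it without 6M_202, 6M_203 or 30M_218, and in 6, 6 and 3 of the 12 fits in all. Of 7 alveolar macrophage, 8 alveolar type 2 and 6 endothelial markers 0 were called, with median log2 changes of -0.15, -0.38 and 0.20. No marker of these lists was at 0 in every library of an age, and their part in the members' change was not tested.

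Upstream of Ciita, 1 of 9 tested genes of the interferon gamma pathway list was called higher, and the median log2 change of the 9 was 0.59. It was Spi1, which encodes the myeloid and B cell factor PU.1, with 70.4, 78.2 and 77.8 CPM at 30M and 23.7, 32.3 and 15.04 CPM at 6M. The groups were far apart, with a log2 fold change of 1.67 (SE 0.24, adjusted p = 0.00416, edgeR), and it was called in each fit that left out 1 library. Irf8, a myeloid and B cell factor of the same family as Irf1, averaged 69.0 ± 6.67 CPM at 30M and 41.4 ± 12.6 CPM at 6M (SD, n = 3 each; adjusted p = 0.11, edgeR). Irf1, a transcription factor induced by interferon gamma, averaged 145 ± 17.4 CPM at 30M and 96.3 ± 8.88 CPM at 6M (adjusted p = 0.133). Ifng itself had 3 to 10 counts in the 30M libraries and 1 to 3 in those of 6M, too few to be tested.

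The factors that hold CIITA on the promoters showed no change that passed the test. Of 7 genes of the RFX and NF-Y list 0 were called, and the median log2 change was 0.07. Rfx5, a subunit of the X-box complex, averaged 33.8 ± 2.78 CPM at 30M and 33.6 ± 4.78 CPM at 6M (SD, n = 3 each). Nfya, a subunit of the Y-box complex, averaged 60.4 ± 1.99 CPM at 30M and 54.3 ± 1.88 CPM at 6M, with an adjusted p of 0.750 in edgeR. Creb1 averaged 81.8 ± 9.17 CPM at 30M and 96.9 ± 2.64 CPM at 6M, a log2 difference of -0.24 (adjusted p = 0.507, edgeR). Nfyc and Rfxank had adjusted p-values of 0.897 and 0.903.

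Of 8 endolysosomal genes listed for class II processing, which are mainly proteases, 1 was called higher, and their median log2 change was 0.22. Ctss, encoding cathepsin S, the protease that trims the invariant chain in antigen-presenting cells, had 433, 334 and 246 CPM at 30M and 139, 148 and 111 CPM at 6M. The lowest 30M library was above the highest of 6M, with a log2 fold change of 1.35 (SE 0.23, adjusted p = 0.0105, edgeR; 0.0887 without 6M_203). Ctsb, encoding cathepsin B, averaged 674 ± 89.6 CPM at 30M and 422 ± 23.0 CPM at 6M and just missed (adjusted p = 0.0562). Cst3, a cathepsin inhibitor, and Ctsd had adjusted p-values of 0.421 and 0.562. Of 3 genes that set the surface life of class II 0 were called: Marchf1, the ubiquitin ligase that removes class II, averaged 23.2 ± 5.23 CPM at 30M and 13.7 ± 3.48 CPM at 6M (adjusted p = 0.245), and Marchf8 and Cd83 had adjusted p-values of 0.779 and 0.897.

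Among 8 genes for class II receptors and costimulation 1 was called higher, with a median log2 change of 0.89. Lag3, an inhibitory receptor of T cells that binds class II, had 4.84, 5.0 and 7.05 CPM at 30M and 1.87, 2.15 and 0.889 CPM at 6M. Its log2 fold change of 1.78 (SE 0.41, adjusted p = 0.0431, edgeR) was at the edge of the threshold, and the call was lost in 8 of the 12 fits that left out 1 library, those without 6M_201, 6M_202, 6M_203, 12M_207, 20M_221, 30M_216, 30M_218 or 30M_220, with adjusted p up to 0.218. Cd86, a ligand that costimulates T cells, averaged 14.3 ± 4.0 CPM at 30M and 5.98 ± 1.28 CPM at 6M (adjusted p = 0.0591). Cd4, the coreceptor for class II, averaged 8.89 ± 3.58 CPM at 30M and 3.74 ± 0.912 CPM at 6M (adjusted p = 0.172), and Cd28 had an adjusted p of 0.467.

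The 5 genes whose levels were most like the mean log2 CPM of Cd74, H2-Aa, H2-Ab1 and H2-Eb1 over the 12 libraries, among 13339 genes with a mean of at least 5 CPM, were Smpdl3b (Pearson r 0.927), Slamf7 (0.921), Spn (0.916), Thy1 (0.911) and Itga2 (0.908). Spn, which encodes the leukocyte sialoglycoprotein CD43, averaged 86.8 ± 24.9 CPM at 30M and 21.5 ± 7.54 CPM at 6M (SD, n = 3 each). Thy1, a surface glycoprotein of mouse T cells, averaged 39.9 ± 5.72 CPM at 30M and 16.2 ± 3.66 CPM at 6M. The likeness is a ranking and carries no test.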

How the data were processed

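Total RNA of lung was extracted with ISOGEN II, selected for poly-A and sequenced as paired-end reads on an Illumina platform, per the labels' protocols. The submitters' processing notes name FastQC 0.11.7, Trimmomatic 0.38, HISAT2 2.1.0 and featureCounts (no version), with build GRCm38 (mm10). The sources used here give neither the annotation release nor the strand setting. The deposited values are whole-number counts per gene without normalization, in 12 libraries, each assigned to its age by its title.

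Counts were tested with edgeR 4.0.16 in R 4.3.3 (quasi-likelihood test, robust fit, TMM scaling, filterByExpr by age) in 1 fit of all 12 libraries, with Benjamini-Hochberg adjustment over 18407 genes and a threshold of 0.05. The common biological coefficient of variation was 0.236. Libraries of 1 age differed beyond sampling noise (chi-square per gene 6.66 to 49.9). CPM are counts per 1e+06 with TMM scaling, given as mean ± SD, and CPM per kb divide them by the summed exon length in GENCODE M21 (GRCm38), which has 55141 of the table's identifiers, 99.4% of them with the same start and end. Pearson coefficients used log2 CPM with a prior count of 2. Motif letters were searched with Python 3.11.15. The scripts were tested on simulated data.

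Alternatives were DESeq2 1.42.0, limma 3.58.1 (voom with quality weights), DESeq2 size factors in edgeR, no filter, a filter of at least 1 CPM in 3 libraries, only the ages compared, a covariate for or removal of the 3 libraries with a GC trend, and leaving out each library. Shares called by DESeq2 are of the genes to which it gave an adjusted p. Members, lists and tests were chosen with earlier results of these data known. Named besides the members are up to 4 genes of each list with the smallest p at 30M against 6M and the 5 genes most alike, and some genes this rule takes are not reported here. March1 and March8 were matched as Marchf1 and Marchf8.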

Additional observations from a re-analysis of the deposited data

How the results depend on the processing

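No member was called at 12M or 20M against 6M under any of the 20 alternatives. At 30M against 6M the count of 7 members was 8 with DESeq2, limma voom, no filter or the GC covariate, 7 with DESeq2 size factors or the 1 CPM filter, 5 with only the ages compared, and 2 without the 3 libraries with a GC trend; leaving out 1 library gave 0 to 8. At 30M against 20M the count of 0 was 2 with DESeq2, 1 with limma voom, and 0 to 1 leaving out 1 library. For the joint test the count of 1 was 8 with DESeq2, 8 with limma voom, 4 with no filter, 2 with the GC covariate, 0 without the 3 libraries with a GC trend, and 0 to 2 leaving out 1 library. For the slope the count of 6 was 3 without the 3 libraries with a GC trend and 1 to 7 leaving out 1 library. Over all tested genes the joint test called 1.11% and the slope 2.68% with every library. Leaving out 1 library, those shares were 0.357% to 1.51% and 1.24% to 3.24%. Without the 3 libraries with a GC trend they were 0.757% and 2.75%. The joint share was 0.967% with no filter and 1.55% with the GC covariate. The cause of these shifts was not tested. The log2 change of H2-Oa ran from -0.13 to 0.51 leaving out 1 library, and was reversed without 6M_203 (-0.13), without 30M_220 (-0.0056) and without the 3 libraries with a GC trend (-0.0048). Those of the other 9 members kept their sign in each alternative, from 0.65 to 1.41 for the 8 higher ones and from -1.07 to -0.11 for H2-Ob. At 30M against 6M the median change over all genes stayed between -0.0245 and 0.00896, and DESeq2 and limma voom called 4.1% and 3.23% of all genes. No paired analysis was possible because the ages share no replicate number. H2-Oa had 51 to 180 counts a library, so its values carry the most counting error of the members.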

Other observations

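The class II genes share their stretch of chromosome 17 with genes of class I peptide supply, and Psmb8, Psmb9, Tap1 and Tap2 among them rose as well. Between the start of H2-Oa and position 34341412 (GRCm38), 16 genes were tested, of which 7 are members. Of the 9 others 6 were called higher at 30M against 6M and 0 lower, where 1.93% of all tested genes were called higher. They were Psmb8 and Psmb9, the inducible catalytic subunits of the immunoproteasome, Tap1 and Tap2, the transporter that brings peptides to class I molecules, and the predicted loci Gm20496 and Gm15821. Gm15821 lies within Tap2 and Gm20496 overlaps Psmb8 and Tap2, both on the opposite strand. With the strand setting not given, reads in the shared parts are uncertain, and these loci may not add separate calls. The log2 fold changes of Tap1 and Psmb8 were 1.25 and 1.23 (adjusted p = 0.00367 and 0.00300, edgeR), those of Psmb9 and Tap2 were 1.05 and 0.77 (adjusted p = 0.00893 and 0.0105), and Psmb9 and Tap2 lost the call without 6M_202 or 6M_203. Gm15821 (0.62, adjusted p = 0.0307) lost it without 6M_202, 6M_203, 30M_216, 30M_218 or 30M_220. Within the same stretch Brd2, a bromodomain gene, H2-DMb2 and H2-Eb2 were not called, with log2 differences of 0.14, 0.08 and 0.40. The stretch was chosen after the values were seen, and genes that overlap or neighbour each other there are not independent.

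Outside the members' own comparisons, 20M_222 had 1039 CPM of the skeletal muscle actin gene Acta1, where no other library had more than 2.13 CPM. Of the 3 libraries of 20M, that library was the highest for Cd74, H2-DMa and Ciita, between the others for H2-Ab1, and the lowest for the other 6 members.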
